A study of Rattus norvegicus with 16 samples.

Results

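Amino acid transporters of the Slc1a, Slc3a, Slc7a, Slc36a, Slc38a and Slc43a families were followed in tibialis anterior muscle of dystrophin-mutant and wild-type rats. They were taken as every gene whose symbol begins with one of these family names followed by a number, which gave 42 of the 31141 genes in the deposited table. Of these, 41 are named for a transporter or its partner chain, and the remaining one, Slc7a6os, carries the symbol of the gene beside it and is not itself a transporter. All libraries came from poly-A RNA of frozen muscle of Wistar-Imamichi rats. There were 6 libraries from rats with the genotype Dmd that received the MCTKD diet between weaning and 9 months of age (DMD_KD), 6 from rats of the same genotype that ate normal diet (DMD_ND), and 4 from wild-type animals that also ate normal diet (WT_ND). MCTKD is not written out in the labels; it is commonly a medium-chain triglyceride ketogenic diet. All groups were fed from weaning to the same age of 9 months. The Dmd allele is not described. Wild-type rats on MCTKD are not among the groups, so the diet was compared within the mutant genotype only. The labels do not say that each library came from its own animal, and p-values measure the spread between these libraries.

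Muscle fibres take up amino acids through carriers that work in series. Sodium-coupled carriers of the Slc38a family accumulate glutamine and other small neutral amino acids, and exchangers such as Slc1a5 and Slc7a5 then trade intracellular amino acids for others, among them the branched-chain amino acids. The Slc7a light chains reach the plasma membrane only as a complex with a heavy chain, Slc3a2 or Slc3a1. Several members, including Slc38a2 and Slc7a5, are known from other systems as genes that the transcription factor Atf4 turns on when amino acids are short, and some members sit on the lysosome, where amino acids are sensed by the kinase complex mTORC1.

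Libraries held 17125084 to 28116085 assigned reads. Dmd measured 0.546 to 2.04 FPKM in DMD_KD, 1.37 to 1.98 FPKM in DMD_ND and 4.13 to 11.9 FPKM in WT_ND, with no overlap between either mutant group and WT_ND; FPKM is fragments per kilobase of gene and per unit of library size. DMD_KD replicate 3 stood apart from its group on the second principal component of all tested genes (-57.5, against -10.2 to 10.2 in the other DMD_KD libraries), and WT_ND replicates 1 and 4 (-14.04 and -18.8) lay apart from WT_ND replicates 3 and 9 (30.1 and 25.3). Muscle fibre markers, among them Acta1 and Ckm, were abundant in every library, with a summed level of 35262 to 106106 FPKM in DMD_KD, 26553 to 43878 FPKM in DMD_ND and 68373 to 123493 FPKM in WT_ND. In RNA from whole muscle, fewer cells of a type and less RNA per cell cannot be told apart.

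The promoter windows of 4 members called in the genotype comparison are shown because these members moved in opposite directions while a shared regulator is known for some of them, and they were chosen after their values were seen. Each window runs from 250 bases before to 50 bases after the gene's start in RefSeq on GRCr8 and is written 5′ to 3′ on the gene's strand. Capitals mark the sequence TGATGNAA, or TTNCATCA where it lies on the other strand, a form of the element through which Atf4 acts. Slc1a4 (chr14:98761513-98761812, minus strand) and Slc7a5 (chr19:66872363-66872662, minus strand) were higher in DMD_ND, and Slc38a1 (chr7:129681352-129681651, minus strand) and Slc38a2 (chr7:129742570-129742869, minus strand) were lower.
Slc1a4: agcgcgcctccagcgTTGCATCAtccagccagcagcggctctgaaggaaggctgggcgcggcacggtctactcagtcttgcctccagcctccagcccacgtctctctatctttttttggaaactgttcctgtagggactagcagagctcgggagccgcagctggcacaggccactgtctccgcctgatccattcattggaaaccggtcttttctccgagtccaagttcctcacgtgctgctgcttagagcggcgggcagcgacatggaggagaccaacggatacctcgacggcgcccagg
Slc7a5: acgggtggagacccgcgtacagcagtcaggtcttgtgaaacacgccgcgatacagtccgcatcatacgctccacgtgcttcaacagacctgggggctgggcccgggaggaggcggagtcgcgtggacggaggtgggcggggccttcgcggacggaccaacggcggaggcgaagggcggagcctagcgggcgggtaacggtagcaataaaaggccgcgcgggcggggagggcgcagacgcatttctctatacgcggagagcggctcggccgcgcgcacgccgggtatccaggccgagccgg
Slc38a1: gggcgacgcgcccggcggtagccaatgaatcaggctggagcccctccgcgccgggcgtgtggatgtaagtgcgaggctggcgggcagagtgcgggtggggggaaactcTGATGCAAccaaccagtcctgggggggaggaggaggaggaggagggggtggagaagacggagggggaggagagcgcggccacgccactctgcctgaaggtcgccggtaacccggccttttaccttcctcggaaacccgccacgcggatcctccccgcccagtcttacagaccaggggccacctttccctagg
Slc38a2: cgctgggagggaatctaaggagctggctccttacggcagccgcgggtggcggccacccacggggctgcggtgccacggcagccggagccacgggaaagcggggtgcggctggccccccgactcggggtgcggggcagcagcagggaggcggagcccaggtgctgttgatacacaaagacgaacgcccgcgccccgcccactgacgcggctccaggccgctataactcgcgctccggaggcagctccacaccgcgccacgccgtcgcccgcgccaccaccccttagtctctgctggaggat
The element lies with its first base 235 bases before the start of Slc1a4, on the other strand, and 142 bases before the start of Slc38a1, on the gene's strand. Of the 33 members with a window in the RefSeq table, 3 held the element, the remaining one being Slc7a1 at 30 bases before its start. In all, 3.98% of the 33469 windows held it. So the element was seen in Slc1a4, which was higher, and in Slc38a1, which was lower. The filter described below let Slc1a4 in through mutant libraries only and Slc38a1 through wild-type libraries only, so no conclusion is drawn from these directions. Slc7a1 did not pass that filter, and without it was called higher in DMD_ND (0.80 on the log2 scale). The match describes letters in a window, not a site in use.

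The first comparison, DMD_ND against WT_ND, asks how the transporters differ between dystrophin-mutant and wild-type muscle on the same diet. The most abundant carriers of wild-type muscle, the Slc38a members Slc38a2, Slc38a3 and Slc38a4, were 3.20- to 3.52-fold lower in the mutant, and the arginine carrier Slc7a2 and the leucine carrier Slc43a1 were 3.73- and 2.90-fold lower. The exchangers Slc1a5 and Slc7a5, which averaged 1.17 and 0.25 FPKM in wild-type muscle, were 4.17- and 3.86-fold higher in the mutant. These folds are on the scale of log2(FPKM + 1), which understates the change of low genes. Of the 24 members that passed the filter (1 FPKM or more in 4 or more libraries), 17 were called at an adjusted p under 0.05 by limma (70.8%), beside 65.7% of all 12119 genes tested, so the share of members called lay near the background. Of the 17 called members, 10 were higher and 7 were lower, where 31.5% and 34.3% of all genes were called in these directions. The split between directions is a description only, since the filter let 8 of the 10 higher members in through mutant libraries alone and Slc38a1, which was lower, through wild-type libraries alone, and of the 15 members that reached it in both genotypes 2 were higher, 6 lower and 7 not called. With an unadjusted p under 0.05 there were 18 members, beside 68.5% of all genes. A change of at least 2-fold was found in 3 members upward and 5 downward, where 13.9% and 10.1% of all genes did so. This count rests on the pseudocount: with 0.1 in place of 1 it was 8 upward and 6 downward, beside 21.1% and 13% of all genes. The median log2 difference over the members was -0.0035, beside -0.04 over all genes. Every called member separated the groups: 10 had all DMD_ND libraries above all WT_ND libraries and 7 had them below, where 26.8% of all genes lay above and 28.3% below.

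The scale of the library sizes bears on direction. The deposited values are scaled between libraries by a size factor, which averaged 1.10 ± 0.27 in DMD_KD, 1.23 ± 0.14 in DMD_ND and 0.71 ± 0.16 in WT_ND (SD, n = 6, 6 and 4). When the same values were rescaled to TPM (an equal total per library), the median of all genes shifted by 0.86 on the log2 scale in DMD_ND against WT_ND. In TPM 18 members were called higher and 6 lower, beside 8564 higher and 720 lower of all 12119 genes. Most genes were thus called higher in TPM. Slc38a1, Slc38a2, Slc38a3, Slc38a4, Slc43a1 and Slc7a2 were lower under both scalings, while Slc3a2 was lower in the deposited values and higher in TPM. Relative to the median gene, Slc3a2 was at -0.37 in TPM. The 7 members not called in the deposited values, Slc38a7, Slc38a9, Slc3a1, Slc7a6, Slc7a8, Slc7a6os and Slc36a1, were called higher in TPM, by 0.60 to 1.28 on the log2 scale. Relative to the median gene in TPM, these members lay at -0.23 to 0.45.

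**Figure D1:**
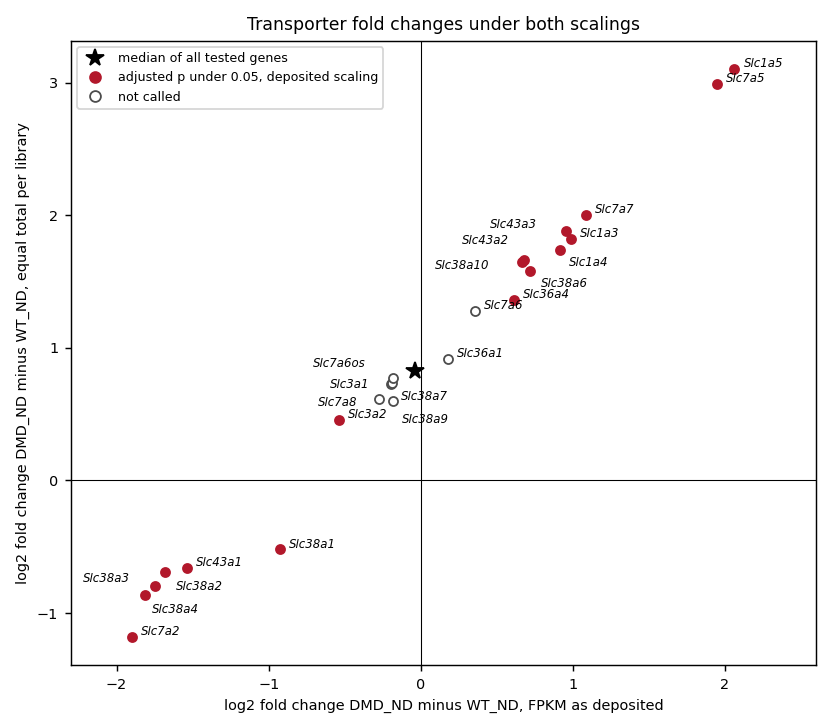
Log2 differences of the 24 tested members in DMD_ND against WT_ND from the deposited FPKM (x axis) and after rescaling to an equal total per library, TPM (y axis), with filled points for members called on the deposited scale and a star for the median of all genes. Slc38a2, Slc38a3, Slc38a4, Slc38a1, Slc43a1 and Slc7a2 lie below 0 on both scales, and Slc3a2 lies below 0 in FPKM (-0.54) and above 0 in TPM (0.46).

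The sodium-coupled Slc38a family held 11 members, of which 8 were tested in DMD_ND against WT_ND: 2 were higher, 4 lower and 2 not called. Of all genes, 31.5% were called higher and 34.3% lower. Slc38a6, which was higher, reached the filter through mutant libraries only, and Slc38a1, which was lower, through wild-type libraries only. Slc38a2 (chromosome 7, 127851267 to 127863436, minus strand, mRatBN7.2), a system A carrier of glutamine, alanine and other small neutral amino acids, had the highest level of all members in wild-type muscle. It measured 27.4, 33.0 and 51.2 FPKM as the lowest, median and highest of DMD_KD, 26.1, 29.8 and 38.2 FPKM in DMD_ND, and 72.4, 121.8, 91.6 and 119.7 FPKM in the WT_ND libraries. Every mutant library lay below every wild-type library. The level averaged 30.5 ± 4.24 FPKM in DMD_ND and 101.4 ± 23.7 FPKM in WT_ND (SD, n = 6 and 4), a log2 difference of -1.68 (SE 0.18, limma adjusted p = 3.8e-07). In TPM the difference was -0.69 and stayed below 0.

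Slc38a3 (chromosome 8, 108323894 to 108339988, minus strand), a system N carrier of glutamine, histidine and asparagine, measured 10.5, 14.04 and 22.9 FPKM in DMD_KD, 9.96, 12.6 and 13.4 FPKM in DMD_ND, and 30.3, 52.1, 42.9 and 49.3 FPKM in WT_ND. The mutant groups again lay wholly below WT_ND, and the log2 difference of DMD_ND against WT_ND was -1.75 (SE 0.18, limma adjusted p = 2.62e-07). Slc38a4 (chromosome 7, 128144807 to 128202995, minus strand), a system A carrier, had 15.9, 22.1 and 29.9 FPKM in DMD_KD, 6.34, 14.8 and 19.9 FPKM in DMD_ND, and 61.3, 37.97, 56.8 and 41.7 FPKM in WT_ND. All mutant libraries were below all wild-type libraries, and the DMD_KD median lay above the highest DMD_ND value. Its log2 difference was -1.81 (SE 0.25, limma adjusted p = 6.03e-06).

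Slc38a2, Slc38a3 and Slc38a4 together made up 36.04 ± 4.13% of the summed transporter FPKM in DMD_KD, 29.8 ± 3.94% in DMD_ND and 57.2 ± 4.24% in WT_ND (SD, n = 6, 6 and 4). The sum over the 41 transporter genes was 203.3 ± 16.03 FPKM in DMD_KD, 189.3 ± 10.1 FPKM in DMD_ND and 339.3 ± 17.5 FPKM in WT_ND. A share within a library does not depend on how libraries are scaled. The shares of the mutant groups did not overlap with those of WT_ND, whose lowest was 52.4% against a highest of 41.7% in DMD_KD and 36.3% in DMD_ND. Slc38a2, Slc38a3 and Slc38a4 were each already known to lie wholly below WT_ND in both mutant groups. Their share is thus a description and not a further test.

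**Figure D2:**
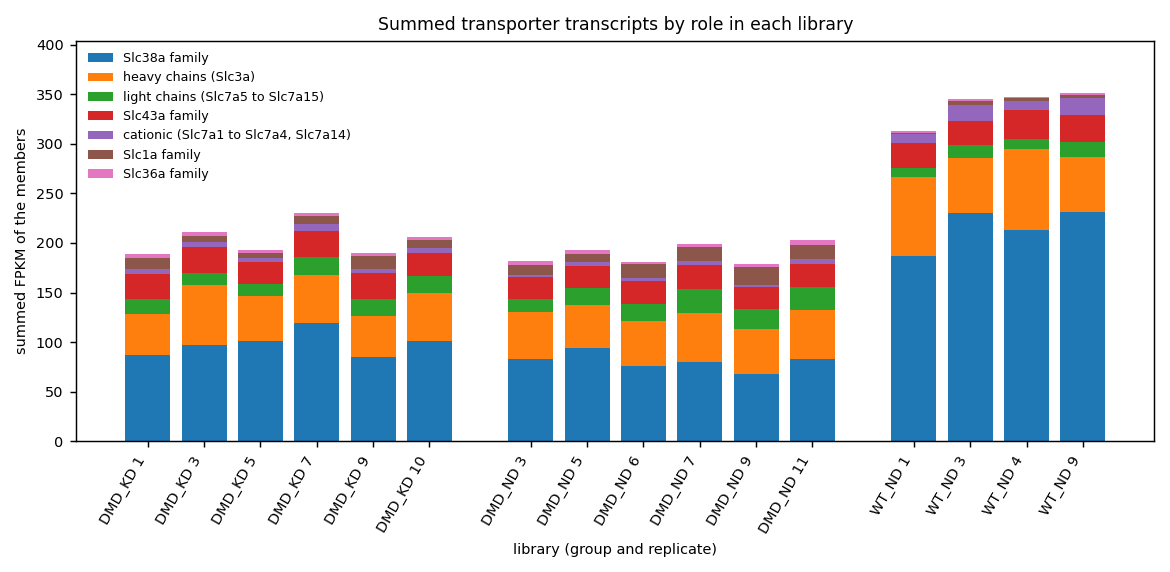
Summed FPKM of the 41 transporter genes in each library (1 bar per library, DMD_KD, DMD_ND and WT_ND from left to right), stacked by role. The Slc38a family summed to 98.5 ± 12.5 FPKM in DMD_KD, 80.6 ± 8.68 FPKM in DMD_ND and 215.3 ± 20.7 FPKM in WT_ND, and the light chains to 15.3 ± 2.37, 18.9 ± 4.28 and 11.97 ± 2.61 FPKM (SD, n = 6, 6 and 4).

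Other Slc38a members moved differently. Slc38a1, another system A glutamine carrier, averaged 0.55 ± 0.17 FPKM in DMD_KD, 0.57 ± 0.14 FPKM in DMD_ND and 2.09 ± 0.98 FPKM in WT_ND, and was lower in DMD_ND by a log2 difference of -0.93 (limma adjusted p = 7.03e-05). Slc38a1, Slc38a2 and Slc38a4 lie near each other on chromosome 7 of mRatBN7.2. The gaps are 49048 bases, with 2 other genes, between Slc38a1 and Slc38a2 and 281370 bases between Slc38a2 and Slc38a4. All 3 were lower in DMD_ND, though Slc38a1 reached the filter through wild-type libraries only. Slc38a10 went the other way, with 11.1, 11.8 and 13.9 FPKM in DMD_KD, 11.6, 12.6 and 13.7 FPKM in DMD_ND, and 8.39, 5.94, 7.91 and 8.33 FPKM in WT_ND (log2 difference of DMD_ND against WT_ND 0.66, SE 0.10, limma adjusted p = 2.42e-05). All mutant libraries of Slc38a10 stood above all wild-type ones. Slc38a6 was higher as well (0.72, adjusted p = 0.00103). The lysosomal carriers were not called: Slc38a7, which exports glutamine and asparagine from the lysosome, had 6.08, 6.18 and 8.57 FPKM in DMD_KD, 4.86, 5.84 and 6.83 FPKM in DMD_ND, and 7.78, 5.41, 8.81 and 5.70 FPKM in WT_ND (limma adjusted p = 0.197 in DMD_ND against WT_ND), while Slc38a9, the lysosomal arginine sensor, had a log2 difference of -0.19 (adjusted p = 0.197).

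In the Slc1a family of glutamate carriers and neutral amino acid exchangers, 3 of 7 members were tested. All 3 were called higher in DMD_ND than in WT_ND, where 31.5% of all genes were called higher. All 3 reached the filter through mutant libraries only, and without the filter Slc1a7 was called higher and Slc1a1 lower. Slc1a5 (chromosome 1, 77456694 to 77470952, plus strand), the neutral amino acid exchanger that brings glutamine into cells, measured 3.22, 4.74 and 8.77 FPKM in DMD_KD, 4.45, 8.88 and 12.3 FPKM in DMD_ND, and 1.07, 1.53, 1.11 and 0.96 FPKM in WT_ND. Every mutant library exceeded every wild-type library, and DMD_KD and DMD_ND overlapped. The log2 difference of DMD_ND against WT_ND was 2.06 (SE 0.24, limma adjusted p = 1.24e-06). It differed by 2.69 with a pseudocount of 0.1 and by 2.77 when recovered reads were fitted with limma voom. The ratio of Slc38a2 to Slc1a5 FPKM was 7.37 ± 3.17 in DMD_KD, 4.25 ± 2.36 in DMD_ND and 88.8 ± 25.0 in WT_ND (SD, n = 6, 6 and 4). Each of these genes already separated both mutant groups from WT_ND, in opposite directions. The ratio therefore had to separate them too, and it adds no further result.

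Slc1a4, an exchanger of alanine, serine and cysteine, averaged 1.17 ± 0.29 FPKM in DMD_KD, 1.60 ± 0.20 FPKM in DMD_ND and 0.39 ± 0.21 FPKM in WT_ND. Its lowest, median and highest values were 0.67, 1.23 and 1.48 FPKM in DMD_KD and 1.34, 1.65 and 1.89 FPKM in DMD_ND, beside 0.14, 0.37, 0.41 and 0.64 FPKM in WT_ND. No mutant library reached down to the WT_ND range, and the log2 difference of DMD_ND against WT_ND was 0.92 (limma adjusted p = 4.49e-06). Slc1a3, a glutamate carrier, averaged 1.06 ± 0.58 FPKM in DMD_KD, 1.81 ± 0.91 FPKM in DMD_ND and 0.37 ± 0.15 FPKM in WT_ND, with a log2 difference of 0.99 in DMD_ND (adjusted p = 0.00134).

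The Slc7a light chains exchange amino acids once paired with a heavy chain. Of the 4 tested members, 2 were higher in DMD_ND than in WT_ND and 2 were not called, where 31.5% of all genes were called higher. Both higher members, Slc7a5 and Slc7a7, reached the filter through mutant libraries only, so their direction is a description only. Slc7a5 (chromosome 19, 49935220 to 49963823, minus strand), the carrier of leucine, isoleucine and other large neutral amino acids, measured 1.38, 2.06 and 2.97 FPKM in DMD_KD, 1.72, 3.18 and 9.91 FPKM in DMD_ND, and 0.26, 0.15, 0.29 and 0.27 FPKM in WT_ND. The wild-type values rest on 10, 10, 14 and 15 reads. All mutant libraries exceeded all wild-type libraries, and DMD_ND spread widest. The log2 difference of DMD_ND against WT_ND was 1.95 (SE 0.30, 3.86-fold, limma adjusted p = 2.07e-05), and it was 3.47 with a pseudocount of 0.1 and 3.93 with limma voom on recovered reads, so its size depended on how low values were handled.

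Slc7a7, which exports arginine and lysine in exchange for neutral amino acids, measured 1.86, 2.27 and 2.997 FPKM in DMD_KD, 1.96, 2.49 and 3.86 FPKM in DMD_ND, and 1.11, 0.83, 0.25 and 0.66 FPKM in WT_ND, the last on 25, 32, 7 and 22 reads. The mutant groups stood wholly above WT_ND (log2 difference of DMD_ND against WT_ND 1.09, SE 0.15, limma adjusted p = 7.7e-06). Slc7a6, a close relative with the same exchange, had 2.94, 5.09 and 8.02 FPKM in DMD_KD, 3.67, 6.03 and 7.81 FPKM in DMD_ND, and 2.46, 6.20, 3.92 and 5.92 FPKM in WT_ND. These ranges overlapped in all 3 groups and Slc7a6 was not called (0.36, adjusted p = 0.194). Slc7a8, another carrier of large neutral amino acids, had 3.57, 5.17 and 5.39 FPKM in DMD_KD, 3.97, 5.08 and 5.36 FPKM in DMD_ND, and 5.17, 5.62, 5.68 and 7.81 FPKM in WT_ND, and was not called either (-0.27, adjusted p = 0.0582). It was called lower with library weights (-0.47, adjusted p = 0.00119) and without WT_ND replicate 1 (-0.33, adjusted p = 0.0383), and higher in TPM (0.62). Of the summed light chain FPKM, Slc7a5 took 14.2 ± 5.02% in DMD_KD, 21.8 ± 11.2% in DMD_ND and 2.16 ± 0.83% in WT_ND, while the sum itself was 15.3 ± 2.37 FPKM, 18.9 ± 4.28 FPKM and 11.97 ± 2.61 FPKM (SD, n = 6, 6 and 4).

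Neither heavy chain was higher in DMD_ND than in WT_ND in the deposited values, whereas in TPM both Slc3a2 (0.46) and Slc3a1 (0.74) were. Slc3a2 (chromosome 1, 205604468 to 205618931, minus strand), which pairs with Slc7a5, Slc7a6, Slc7a7 and Slc7a8, had 35.4, 39.4 and 55.1 FPKM in DMD_KD, 38.04, 39.3 and 44.0 FPKM in DMD_ND, and 70.6, 48.2, 71.6 and 49.6 FPKM in WT_ND. Its DMD_ND libraries lay below all WT_ND libraries, and the 55.1 FPKM of DMD_KD replicate 3 lay inside the WT_ND range. The log2 difference of DMD_ND against WT_ND was -0.54 (SE 0.14, limma adjusted p = 0.00301) in the deposited values and 0.46 in TPM. Slc3a1, the partner of Slc7a9 in the uptake of cystine and basic amino acids, had 5.41, 6.67 and 7.46 FPKM in DMD_KD, 5.41, 6.62 and 7.80 FPKM in DMD_ND, and 8.46, 6.405, 10.3 and 6.01 FPKM in WT_ND, with overlapping ranges and no call (adjusted p = 0.231). The ratio of Slc3a2 FPKM to the summed light chains was 2.78 ± 0.93 in DMD_KD, 2.21 ± 0.45 in DMD_ND and 5.37 ± 2.21 in WT_ND (SD, n = 6, 6 and 4).

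Among the cationic amino acid transporters only Slc7a2 was tested of 4 members. Slc7a2 (chromosome 16, 51417493 to 51470784, minus strand), which takes up arginine, lysine and ornithine, measured 3.20, 3.51 and 5.45 FPKM in DMD_KD, 1.06, 2.32 and 3.67 FPKM in DMD_ND, and 7.45, 16.6, 8.28 and 15.8 FPKM in WT_ND. The wild-type libraries were all above the mutant ones and fell into a pair near 8 FPKM, replicates 1 and 4, and a pair near 16 FPKM, replicates 3 and 9. The same wild-type pairs stood apart in Slc3a2 and Slc38a4, with replicates 1 and 4 higher there. The log2 difference of Slc7a2 in DMD_ND against WT_ND was -1.90 (SE 0.24, 3.73-fold, limma adjusted p = 3.03e-06). Slc7a1, the widespread arginine carrier, stayed below the filter at 0.45 to 1.02 FPKM in DMD_KD, 0.59 to 1.44 FPKM in DMD_ND and 0.06 to 0.16 FPKM in WT_ND. Slc7a1 made up 15.1 ± 3.14% of the Slc7a1 and Slc7a2 FPKM in DMD_KD, 29.6 ± 9.91% in DMD_ND and 1.09 ± 0.75% in WT_ND (SD, n = 6, 6 and 4). The shares of mutant and wild-type libraries did not overlap, but neither did the FPKM of Slc7a1 or of Slc7a2, which differed in opposite directions. The Slc7a1 values of WT_ND rest on 12, 8, 9 and 13 reads, and the share was not tested.

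All 3 Slc43a members were called in DMD_ND against WT_ND, in both directions, where 65.7% of all genes were called. Slc43a3 reached the filter through mutant libraries only. Slc43a1 (chromosome 3, 69920649 to 69946768, plus strand), a carrier of leucine and other branched-chain amino acids, measured 4.35, 6.30 and 7.51 FPKM in DMD_KD, 4.44, 5.01 and 5.59 FPKM in DMD_ND, and 14.4, 15.8, 18.8 and 17.0 FPKM in WT_ND. The gap between every mutant and every wild-type library was wide, and the log2 difference was -1.54 (SE 0.12, 2.90-fold, limma adjusted p = 1.44e-08), the smallest adjusted p of the members. Slc43a2, a related carrier of branched-chain amino acids and methionine, had 13.1, 14.1 and 17.4 FPKM in DMD_KD, 10.1, 13.3 and 14.7 FPKM in DMD_ND, and 9.88, 5.52, 8.15 and 7.82 FPKM in WT_ND. It was higher in DMD_ND by 0.68 on the log2 scale (SE 0.13, limma adjusted p = 0.000237). Slc43a3, known as a carrier of purine nucleobases, averaged 4.27 ± 1.81 FPKM in DMD_KD, 4.91 ± 1.12 FPKM in DMD_ND and 2.16 ± 1.04 FPKM in WT_ND, a rise of 0.95 in DMD_ND (adjusted p = 0.00464). Slc43a1 and Slc43a3 lie 62544 bases apart on chromosome 3 of mRatBN7.2 and moved in opposite directions.

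Of the 4 proton-coupled Slc36a carriers, 2 were tested. Slc36a4 averaged 1.20 ± 0.35 FPKM in DMD_KD, 1.31 ± 0.35 FPKM in DMD_ND and 0.50 ± 0.18 FPKM in WT_ND, and was higher by 0.61 on the log2 scale in DMD_ND (limma adjusted p = 0.000997). The lysosomal exporter Slc36a1 was not called (0.18, adjusted p = 0.367), with 1.77 ± 0.31 FPKM in DMD_KD, 1.72 ± 0.81 FPKM in DMD_ND and 1.35 ± 0.33 FPKM in WT_ND. Slc7a6os was not called in DMD_ND against WT_ND (adjusted p = 0.165), but was without WT_ND replicate 3 (-0.27, adjusted p = 0.0456).

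The filter let members in through either genotype. Of the 24 tested members, 15 had 4 or more libraries at 1 FPKM in both genotypes, Slc1a3, Slc1a4, Slc1a5, Slc36a4, Slc38a6, Slc43a3, Slc7a5 and Slc7a7 had them among mutant libraries only, and Slc38a1 among wild-type libraries only. The 18 members that did not pass included 9 below 0.3 FPKM in every library, and their highest value was 1.59 FPKM, for Slc7a4 in WT_ND replicate 1. Slc7a11, the cystine and glutamate exchanger, was at 0 to 0.03 FPKM in DMD_KD, 0.01 to 0.04 FPKM in DMD_ND and listed at 0 in all WT_ND libraries. Without the filter, Slc1a7 (0.65), Slc7a1 (0.80) and Slc7a10 (0.55) were called higher in DMD_ND and Slc1a1 (-0.27), Slc38a11 (-0.18) and Slc7a4 (-0.71) were called lower, as log2 differences. These are 3 and 3 of the 18 members. Of all 22275 genes fitted without the filter, high and low, 5491 were called higher and 4425 lower. Slc1a1, Slc38a8 and Slc7a10 overlap another gene in the deposited positions, and their reads may not be told apart from those of that gene: the overlap is on the opposite strand for Slc38a8 and Slc7a10, and for Slc1a1 with 1 gene on the same strand (428 bases) and 1 on the opposite strand.

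**Figure D3:**
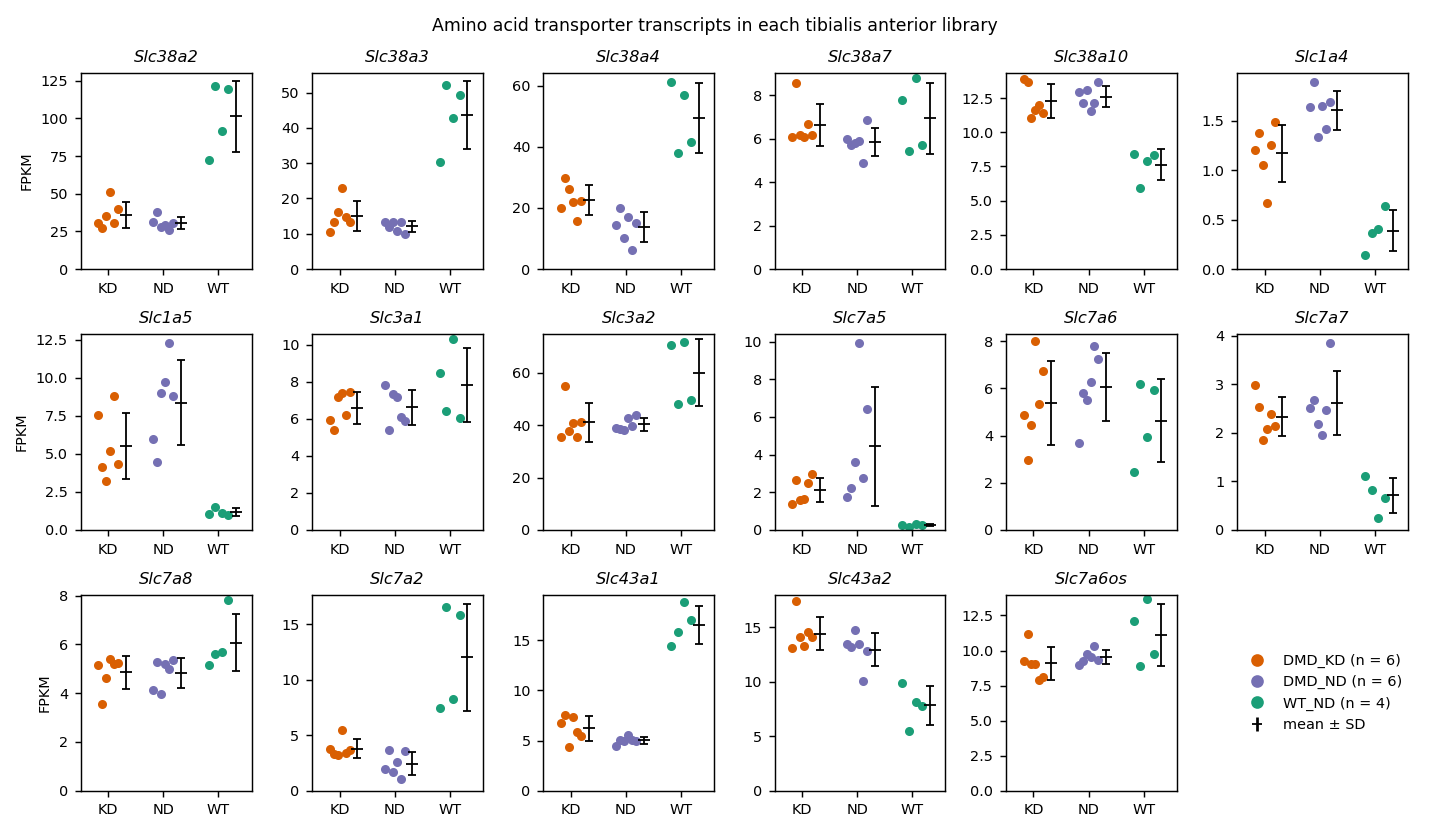
FPKM of 17 members in every library, 1 panel per member with a linear axis from 0, with DMD_KD, DMD_ND and WT_ND from left to right and the mean and SD beside the points. The WT_ND libraries stand above both mutant groups for Slc38a2 (72.4 to 121.8 FPKM), Slc38a3, Slc38a4, Slc43a1 and Slc7a2, and below them for Slc1a5 and Slc7a5.

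For the diet, DMD_KD was set against DMD_ND, both with the mutant genotype. None of the 24 members was called by limma, beside 0.00825% of all genes, which is 1 gene, and 7 members had an unadjusted p under 0.05 (3 higher and 4 lower in DMD_KD) beside 14.3% of all genes. In no member did the groups separate, where 0.842% of all genes lay above and 0.635% below. The 5 members with the smallest p were Slc38a4, Slc1a4, Slc7a5, Slc1a5 and Slc7a2.

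Slc38a4 averaged 22.7 ± 4.86 FPKM in DMD_KD and 13.9 ± 4.86 FPKM in DMD_ND (SD, n = 6 each), a log2 difference of 0.73 (SE 0.22, 95% interval 0.26 to 1.19, limma adjusted p = 0.21). Slc7a2 had 3.79 ± 0.84 FPKM in DMD_KD and 2.44 ± 1.04 FPKM in DMD_ND, a difference of 0.52 (interval 0.06 to 0.98, adjusted p = 0.302). Both values lay closer to WT_ND in DMD_KD, and neither passed. Slc7a5 averaged 2.12 ± 0.66 FPKM in DMD_KD and 4.44 ± 3.16 FPKM in DMD_ND, a difference of -0.65 (interval -1.21 to -0.09, adjusted p = 0.297), with the 2 highest DMD_ND libraries at 6.44 and 9.91 FPKM. Slc1a5 averaged 5.54 ± 2.17 FPKM in DMD_KD and 8.37 ± 2.79 FPKM in DMD_ND, a difference of -0.52 (interval -0.98 to -0.07, adjusted p = 0.301). Slc1a4 differed by -0.27 (interval -0.50 to -0.04, adjusted p = 0.289). Without DMD_KD replicate 3 the adjusted p of Slc38a4, Slc1a4, Slc7a5, Slc1a5 and Slc7a2 was 0.317, 0.348, 0.368, 0.446 and 0.386, and over all alternatives the lowest adjusted p of the 5 was 0.114. For Slc3a2 the difference was 0.01 (interval -0.26 to 0.28), and -0.26 in TPM, and for Slc38a2 it was 0.20 (interval -0.13 to 0.54), and -0.06 in TPM.

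**Figure D4:**
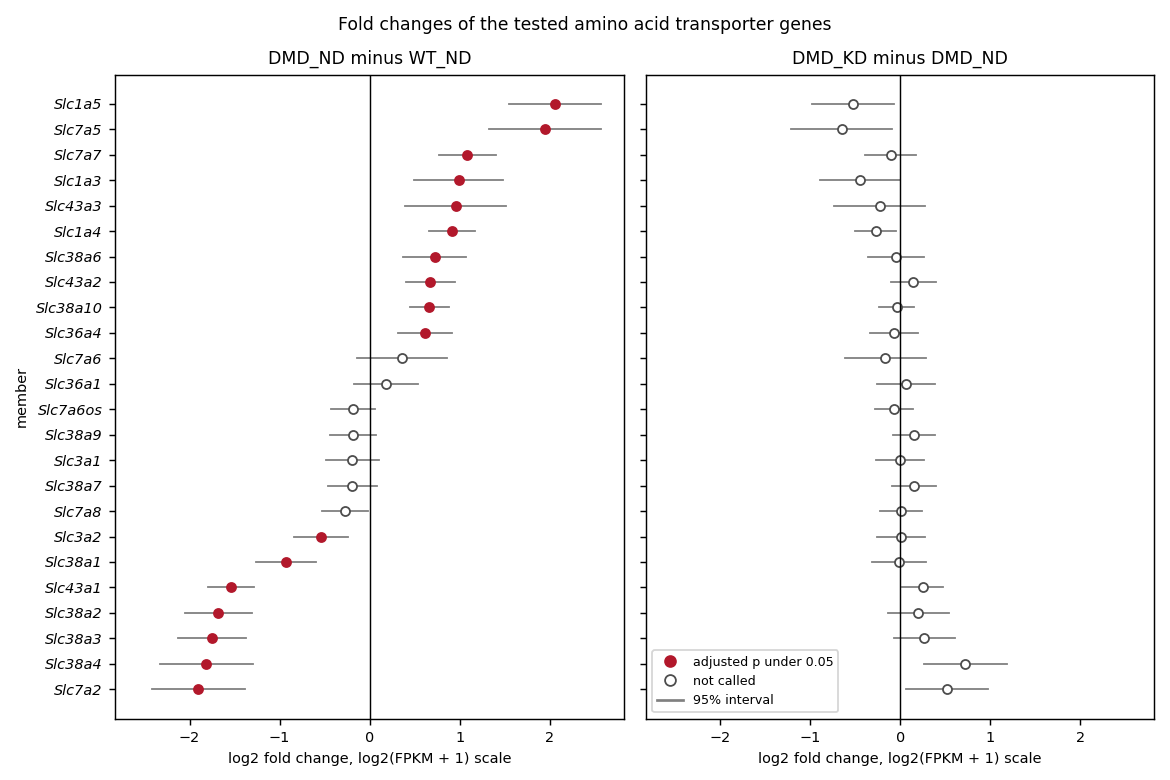
Log2 differences with 95% intervals for the 24 tested members, in DMD_ND against WT_ND (left) and in DMD_KD against DMD_ND (right), with filled points for called members. Differences of the genotype comparison run from -1.90 for Slc7a2 to 2.06 for Slc1a5, and those of the diet comparison from -0.65 for Slc7a5 to 0.73 for Slc38a4.

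The third comparison, DMD_KD against WT_ND, shares its libraries with both others and is given only beside them. Of the 24 members 16 were called (66.7%, against 58.3% of all genes), 9 higher and 7 lower, where 27.3% and 31.1% of all genes were called in these directions; 7 of the 9 higher members had reached the filter through mutant libraries only. At least 2-fold were 2 members upward and 5 downward, beside 10.4% and 5.72% of all genes. With a pseudocount of 0.1 this count was 7 upward and 6 downward, beside 17.9% and 8.03% of all genes. An unadjusted p under 0.05 was found in 19 members, beside 62.5% of all genes. In 6 members all DMD_KD libraries lay above WT_ND and in 6 below, where 20% and 17.3% of all genes did. Slc38a2 differed by -1.48 in DMD_KD and -1.68 in DMD_ND, Slc38a4 by -1.09 and -1.81, Slc7a2 by -1.38 and -1.90, Slc1a5 by 1.54 and 2.06, and Slc7a5 by 1.30 and 1.95, each against WT_ND. Of these, Slc38a4, Slc7a2, Slc1a5 and Slc7a5 are among the members with the smallest p in the diet comparison. Slc43a2 (0.82 in DMD_KD and 0.68 in DMD_ND) and Slc38a1 (-0.94 and -0.93) did not lie closer to WT_ND in DMD_KD. Slc1a3, called in DMD_ND, was not called in DMD_KD (0.54, limma adjusted p = 0.0553), and its difference between DMD_KD and DMD_ND was not called either (-0.44, adjusted p = 0.349). Slc1a3 was called in DMD_KD with a pseudocount of 0.1 (adjusted p = 0.0339), with only the 2 groups compared (0.0458), in TPM (0.0184), with library weights (0.0276) and without DMD_KD replicate 3 (0.0117) or 5 (0.0375). Slc43a3 was higher in DMD_KD (0.73, adjusted p = 0.027) but not called when DMD_KD replicate 1, 7 or 9 or WT_ND replicate 1 or 4 was left out, with adjusted p of 0.0562, 0.0587, 0.0606, 0.131 and 0.057.

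Markers of other cells moved with the genotype, where 31.5% of all genes were called higher and 34.3% lower in DMD_ND against WT_ND. In DMD_ND against WT_ND, all 14 macrophage markers were higher (418.7 to 678.0 FPKM in DMD_KD, 459.3 to 895.7 FPKM in DMD_ND and 28.2 to 70.9 FPKM in WT_ND, as sums), and so were all 10 tested markers of fibro-adipogenic progenitors (1405 to 2299, 1775 to 3073 and 170.2 to 374.8 FPKM). Markers of satellite cells and regenerating fibres were higher in 7 of 9 (163.9 to 260.4, 215.6 to 366.8 and 46.5 to 61.3 FPKM), and all 6 adipocyte markers were higher (144.3 to 358.4, 221.8 to 692.3 and 52.0 to 116.7 FPKM). Of 9 endothelial markers 2 were higher and 2 lower (72.0 to 95.8, 70.7 to 97.8 and 74.2 to 96.6 FPKM). Smooth muscle and pericyte markers were higher in 5 of 8 and lower in 1, Schwann cell markers higher in 2 of 6, neutrophil markers in 3 of 3 and lymphocyte markers in 1 of 1, and the 1 tested erythroid marker was lower. All 10 tested muscle fibre markers were lower. No marker was at 0 in every library. Their part in the transporter values was not tested.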

How the data were processed

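The authors deposited FPKM for each gene of 16 tibialis anterior libraries; per the submitters' processing notes, reads were handled with HISAT2 2.0.5 and featureCounts 1.5.0-p3 on mRatBN7.2. The strand setting and annotation release were not given in the sources used here. Each FPKM times gene length was a whole number of reads within 0.05, and library sizes followed a size factor per library, so values were already scaled between libraries. Every column was mapped by its name to a sample and by genotype and diet labels to a group. No 2 libraries of a group agreed within sampling noise. Genes reaching 1 FPKM in 4 or more libraries (12119) were fitted with limma 3.58.1 (R 4.3.3) on log2(FPKM + 1) (group means, eBayes trend and robust, two-sided, Benjamini-Hochberg over all tested genes), and the fit was tested on simulated data. Called means an adjusted p under 0.05. Members and lists were chosen with earlier results of these data known. Named with every value are members with a mean of at least 5 FPKM in some group or a called 2-fold change, plus the 5 smallest p of the diet comparison. Alternatives were a pseudocount of 0.1, no filter, a mean of at least 5 FPKM, TPM, voom on recovered reads, library weights, a replicate block, only the 2 groups compared, and leaving out each library. Promoters come from RefSeq (GRCr8), matched by symbol.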

Additional observations from a re-analysis of the deposited data

Results flagged for a closer look

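In 51 groups of 4 to 6 libraries examined for a library far from the rest, 4 values stood apart, where chance gives about 1 in 20. DMD_KD replicate 3 was the highest of its group for Slc38a7 (8.57 FPKM, next 6.66), Slc3a2 (55.1 FPKM, next 41.3) and Slc43a2 (17.4 FPKM, next 14.6), and this library also stood apart over all genes. DMD_KD replicate 7 was the highest of its group for Slc7a2 (5.45 FPKM, next 3.77).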

How the results depend on the processing

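Leaving out 1 library at a time kept the count of members called higher at 10 to 10 and lower at 7 to 8 in DMD_ND against WT_ND, at 8 to 10 and 7 to 8 in DMD_KD against WT_ND, and at 0 to 0 in DMD_KD against DMD_ND. Of all 12119 genes, 3622 to 3766 were then higher and 3791 to 4102 lower in DMD_ND against WT_ND. In DMD_KD against WT_ND these counts were 3086 to 3603 and 3265 to 4128. With a mean of at least 5 FPKM, 3 members were called higher in DMD_ND and 3 in DMD_KD against WT_ND, since fewer members are tested. Of the 6244 genes tested there, 1477 and 1302 were called higher. In TPM, 18 members were called higher in DMD_ND against WT_ND, beside 8564 of all 12119 genes. In DMD_KD against WT_ND 16 members were higher and 4 lower in TPM, beside 6930 and 573 of all genes. The median of all genes shifts by 0.62 there, and the cause was not tested. With a replicate block, 7 members were higher and 7 lower in DMD_ND and 6 and 6 in DMD_KD against WT_ND, and 0 in the diet comparison. Of all 12119 genes, 3079 were then higher and 2773 lower in DMD_ND, and 2725 and 2465 in DMD_KD. After group means were removed, same-numbered libraries correlated at -0.656 to 0.407 and differently numbered ones at -0.631 to 0.661. These correlations do not settle whether the numbers pair the samples. Directions reversed in DMD_ND against WT_ND in TPM for Slc38a7 (0.73), Slc38a9 (0.60), Slc3a1 (0.74), Slc3a2 (0.46), Slc7a6os (0.77) and Slc7a8 (0.62), and with library weights for Slc3a1 (0.052) and Slc7a6 (-0.014). In DMD_KD against WT_ND they reversed in TPM for Slc38a7 (0.64), Slc38a9 (0.57), Slc3a1 (0.49), Slc3a2 (0.20), Slc7a6os (0.44) and Slc7a8 (0.38), with the replicate block for Slc38a7 (0.11) and Slc7a6 (-0.054), with library weights for Slc38a7 (0.078) and Slc3a1 (0.048), and when WT_ND replicate 1 was left out for Slc38a7 and Slc7a6 and replicate 4 for Slc38a7. Leaving out 1 library at a time, Slc38a7 ranged from -0.135 to 0.069, Slc7a6 from -0.020 to 0.332 and Slc38a9 from -0.104 to 0.039. In DMD_KD against DMD_ND, Slc38a2 reversed in TPM (-0.059) and Slc3a2 in TPM (-0.257), with the replicate block (-0.0056) and with library weights (-0.055), and Slc3a2 ranged from -0.077 to 0.048 when 1 library was left out. With the replicate block Slc3a2 (adjusted p = 0.16 and 0.129), Slc36a4 (0.0991 and 0.122), Slc38a6 (0.0687 and 0.0885) and Slc43a3 (0.0648 and 0.0941) were not called in DMD_ND and DMD_KD against WT_ND, and Slc38a9 was called lower in DMD_ND (-0.45, adjusted p = 0.0264). Slc43a3 was also not called in DMD_KD with only the 2 groups compared (adjusted p = 0.06). The calls of Slc38a4 and Slc7a2 in DMD_KD against WT_ND were lost in TPM. Counting error limits Slc1a4, Slc7a7, Slc1a3 and Slc7a5 in WT_ND, with as few as 6, 7, 9 and 10 reads.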

Other observations

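Genes around the transporters, from lists of related pathways, also differed between DMD_ND and WT_ND by limma, while none of them was called in DMD_KD against DMD_ND, where 0.00825% of all genes were. Of 14 tested carriers of amino acids or related compounds outside the families above, 4 were higher and 6 lower, beside 31.5% and 34.3% of all genes. Slc25a12, the mitochondrial aspartate and glutamate carrier, averaged 71.0 ± 10.3 FPKM in DMD_KD, 52.7 ± 9.00 FPKM in DMD_ND and 139.6 ± 28.3 FPKM in WT_ND (SD, n = 6, 6 and 4), a log2 difference of -1.38 in DMD_ND (adjusted p = 1.6e-06). Slc25a15, the ornithine carrier, averaged 3.36 ± 0.57 FPKM in DMD_KD, 2.44 ± 0.29 FPKM in DMD_ND and 5.91 ± 0.84 FPKM in WT_ND, and Slc15a3, a lysosomal histidine and peptide carrier, differed by 1.33. Of 7 enzymes of glutamine and glutamate, 1 was higher and 5 were lower, beside the same shares of all genes. Got1, the aspartate aminotransferase of the cytosol, differed by -1.76 (adjusted p = 5.1e-08), Glud1, glutamate dehydrogenase, by -0.91, and Asns, asparagine synthetase, by 1.16.

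The counts of the next lists stand beside 31.5% of all genes called higher and 34.3% called lower in DMD_ND against WT_ND. Of 27 genes of amino acid sensing to mTORC1, 1 was higher and 17 were lower in DMD_ND. Sesn1, a leucine sensor relative, was at -1.32, Mtor itself at -1.01 and Tsc1, an inhibitor of the pathway, at -0.83. Members of this list thus fell on both the activating and the inhibiting side. Of 18 genes of the amino acid response under Atf4, 5 were higher and 7 lower, led by Mthfd2 (1.30), Asns (1.16) and Vldlr (-1.05). Of 8 genes of arginine use, 2 were higher and 3 lower, with Nos1, the neuronal nitric oxide synthase of fibres, at -1.55, Arg1, arginase, at 1.14 and Azin1 at 0.59. The last list joined genes of glutathione with Nfe2l2, Keap1, Hmox1 and Nqo1, which are not glutathione enzymes. Of its 10 tested genes, 5 were higher and 3 lower. Those with the smallest p were Hmox1, heme oxygenase, at 2.56, Keap1 at -0.99 and Nqo1 at 0.76, none of them a glutathione enzyme.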
